A study of Mus musculus with 24 samples.

Results

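The genes described are 8 Toll-like receptors (Tlr1, Tlr2, Tlr3, Tlr4, Tlr6, Tlr7, Tlr9 and Tlr13), the co-receptor Cd14 and the adaptor Myd88, chosen by name. These 10 genes are among 35519 genes with a transcript in the deposited quantification. All 10 passed the filter on low counts, as did 9803 genes in all. They were measured in microglia, macrophages that reside in the brain. The cells were sorted from whole brain of C57BL/6 mice by CD11b and Fcrls and by the absence of Ly6C, and each full-length Smart-Seq2 library was made from 1000 of them.

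The 24 libraries form 8 groups. The 16 phagocytosis libraries are 4 from NL4-/- females, 4 from WT females, 4 from NL4-/- males and 4 from WT males, and the 8 control libraries are 2 from each of the same sex and genotype classes. NL4-/- mice lack neuroligin-4, a synaptic adhesion protein, and WT mice carry it; the gene itself was not analysed here, so the genotype labels were not checked against its reads. The labels give no age, do not describe what the cells of the phagocytosis libraries had taken up, and do not say in what way the controls were handled. The series' text calls the libraries biological replicates but does not say whether cells of several animals were pooled. No gene driver or Cre line is named.

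Toll-like receptors recognise conserved molecules of microbes and of damaged cells. Tlr1, Tlr2, Tlr4 and Tlr6 sit mainly at the cell surface, where Tlr2 pairs with Tlr1 or Tlr6 to bind lipopeptides and Tlr4 binds lipopolysaccharide that Cd14 hands over. Tlr3, Tlr7, Tlr9 and Tlr13 read nucleic acids in endosomes, to which engulfed material is delivered. All of these receptors except Tlr3 signal through Myd88, which leads to NF-kB and to cytokine and chemokine genes; Tlr3 signals through the adaptor Ticam1, and Tlr4 uses both. In the brain, microglia are a main source of these receptors.

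Library totals ran from 421107 to 1013797 reads. In 3 control libraries (female NL4-/- 1, male NL4-/- 1 and male WT 2) satellite-like transcripts took more than 20% of the reads. Results that rest on the controls were also computed without them. That leaves 1 control in each sex and genotype class except WT females, so results gained or lost in those fits rest on 1 control library there. The microglial label was carried by the data, in markers that include Fcrls, on which the cells were sorted. Likewise the monocyte list below includes Ly6c2, a gene of the Ly6C they were sorted against. The 10 microglial markers summed to 18469 to 44231 CPM (reads of a gene over the library total, on a common scale) in phagocytosis libraries and to 32529 to 46413 in control libraries. The sum averaged 29790 CPM in phagocytosis libraries and 39930 CPM in control libraries, and 0 of the 10 markers were higher in phagocytosis (exact permutation test, two-sided, adjusted p = 0.00894 over 11 marker lists). All 12 markers of border-associated macrophages had higher means in phagocytosis libraries: their sum ran from 1419 to 2452 CPM there and from 866 to 1728 CPM in controls (adjusted p = 0.000165, exact permutation test), with most of it in Stab1. All 10 monocyte markers were likewise higher, at low levels: their sum ran from 26.1 to 251 CPM in phagocytosis libraries and from 18.9 to 89.2 CPM in controls (adjusted p = 0.027, exact permutation test), a call lost without the 3 satellite-rich controls (adjusted p = 0.0874, same exact test). Summed markers of neurons (66.6 CPM in phagocytosis libraries, 31.01 CPM in controls), oligodendrocytes (221 and 151 CPM) and endothelial cells (38.1 and 23.0 CPM, with Cldn5 at 0 throughout) were higher in phagocytosis, and those of neutrophils (457 and 568 CPM) and of B cells and plasmacytoid dendritic cells (386 and 523 CPM) were lower, with adjusted p of 0.0041 to 0.027 by the same exact permutation test. Those of T and NK cells (adjusted p = 0.666) and of astrocytes (adjusted p = 0.847) did not pass the exact test. Without the 3 satellite-rich controls the sums of oligodendrocytes (adjusted p = 0.0536) and endothelial cells (adjusted p = 0.0951) no longer passed the exact test. Single genes carried much of several sums. Csf3r (407 CPM in phagocytosis, 533 CPM in controls) was most of the neutrophil sum, with 5 of 10 markers higher in phagocytosis. Ighm (237 and 344 CPM) led the B cell list, with 4 of 10 higher. Uchl1 (32.4 and 2.02 CPM) led the neuronal rise, with Thy1 at 26.9 and 24.9 CPM and 7 of 7 higher. Of 6 markers each, 5 of oligodendrocytes and 3 of endothelial cells were higher. Monocytes and border macrophages also express Cd14 and several Toll-like receptors. Across the 16 phagocytosis libraries, Pearson's r of Cd14 on the log2 scale was 0.451 with the border macrophage sum and 0.398 with the monocyte sum. Over the 11 marker lists r ran from -0.462 (microglia) to 0.646 (neurons). The part of these cells in the results below was not tested.

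Cd14 was the most abundant of the 10 genes and the one that changed most with state. In CPM normalised between libraries by TMM, as all CPM of single genes below, Cd14 stood at 2021, 1165, 1093 and 845 in NL4-/- female phagocytosis libraries, against 378 and 407 in NL4-/- female controls. It stood at 1556, 3001, 1801 and 1419 CPM in WT female phagocytosis libraries, against 601 and 431 CPM in WT female controls. Every female phagocytosis library was therefore above every female control, a separation of female libraries that 4.25% of all genes showed in one direction or the other.

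In NL4-/- males Cd14 was at 1719, 780, 980 and 2180 CPM in phagocytosis libraries, against 364 and 432 CPM in controls. In WT males it was at 1700, 2109, 3795 and 774 CPM in phagocytosis libraries, against 1035 and 957 CPM in controls. The 2 WT male controls were the highest of the 8 controls, and the WT male phagocytosis group held both the highest and the lowest phagocytosis library. Of the 16 phagocytosis libraries, 12 were above all 8 controls and all 16 were above the control median. Cd14 averaged 1684 ± 828.6 CPM in phagocytosis libraries (SD, n = 16) and 575 ± 270 CPM in controls (SD, n = 8). Averaged over the 4 sex and genotype classes, the log2 fold change was 1.63 ± 0.269 (SE), a fold of 3.09 with a 95% interval of 1.06 to 2.20 on the log2 scale, with an adjusted p of 0.000639 (edgeR's quasi-likelihood test, adjusted by Benjamini-Hochberg over all genes tested, threshold 0.05). Without the 3 satellite-rich controls it was 1.58 (adjusted p = 0.0286, edgeR). In libraries of sorted cells, a change in which cells were sorted and a change in RNA per cell cannot be told apart, here and in what follows. Cd14 lies at chr18:36725067-36726798 on the minus strand (GRCm38, GENCODE vM21), and all values are sums over the whole gene's transcripts.

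**Figure D1:**
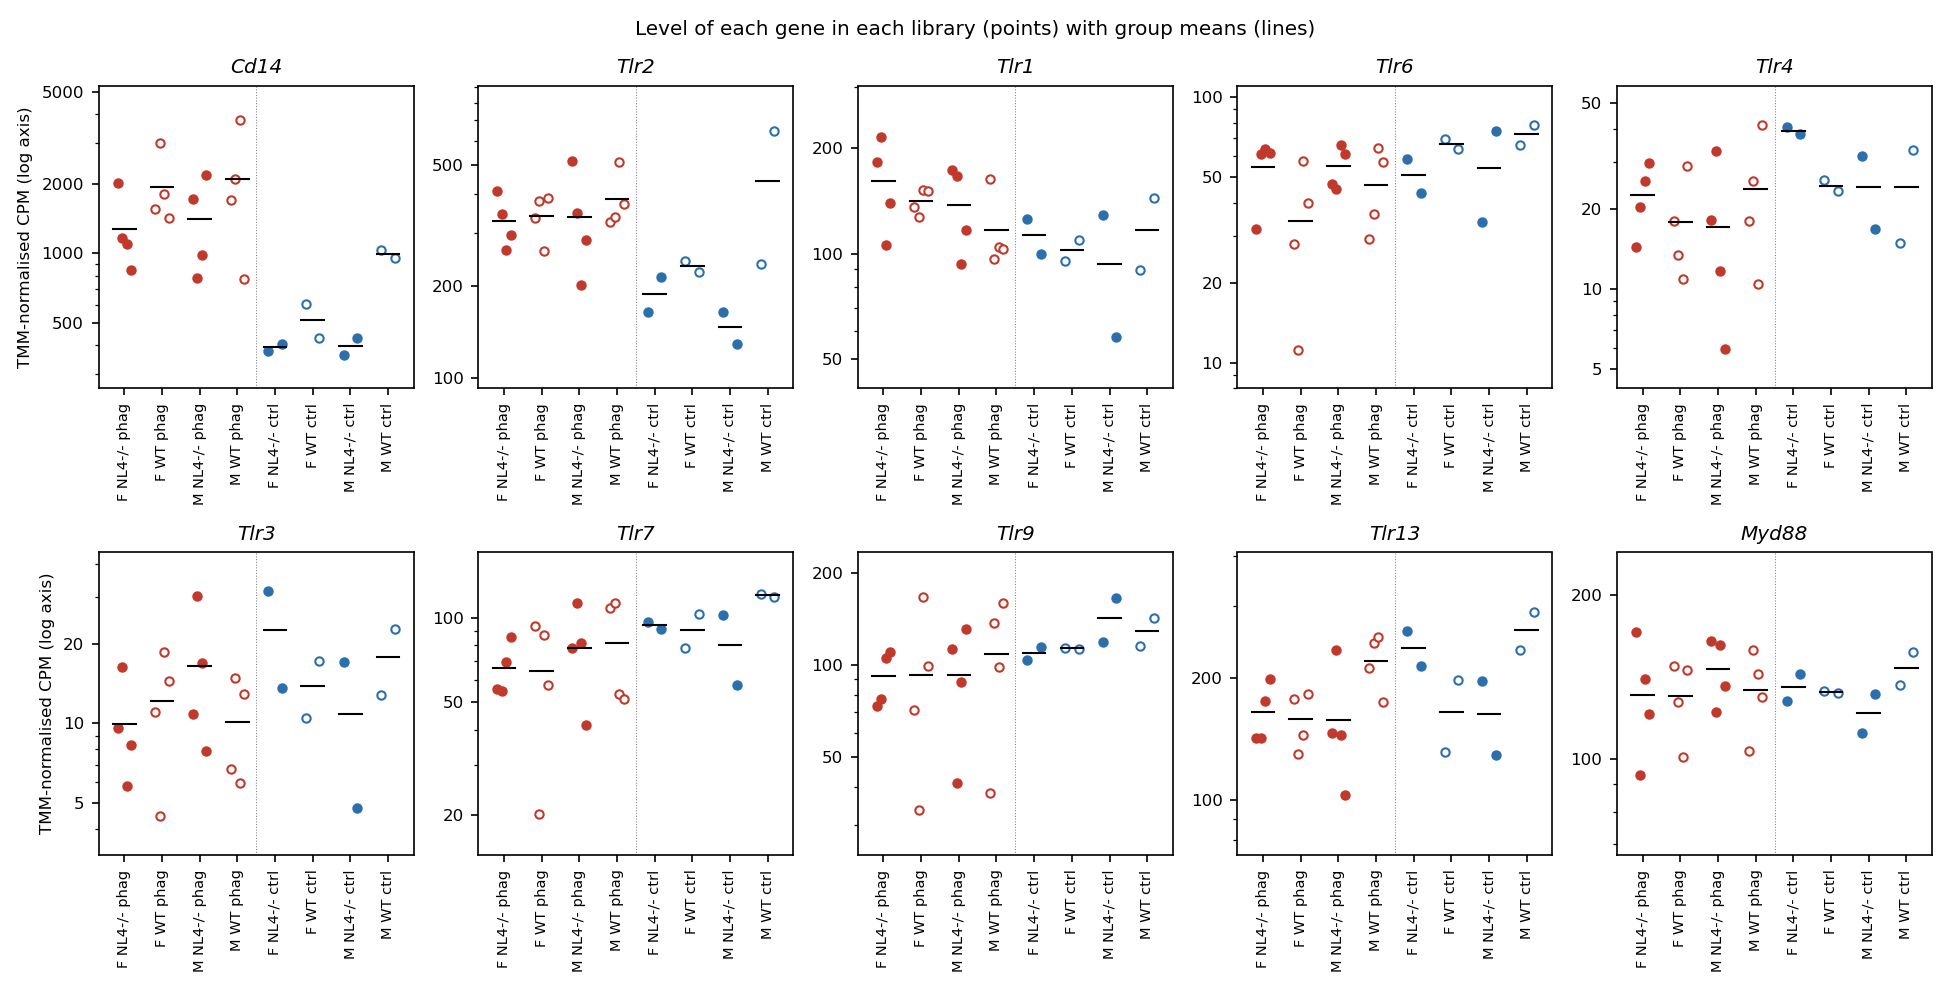
TMM-normalised CPM (log axis) of the 10 genes in each of the 24 libraries, with phagocytosis (phag, red) left of control (ctrl, blue), NL4-/- filled and WT open, and a line at each group mean. Cd14 lies above all controls in 12 of 16 phagocytosis libraries, while for Tlr2 the highest library of all is a WT male control, at 648 CPM.

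Of the 10 genes, 2 rose in phagocytosis libraries and 0 fell, where 13.6% of all genes tested were called in this comparison (8.41% higher and 5.18% lower). The share of genes called is thus of the same order among the 10 as among all genes. The median log2 fold change of the 10 genes was -0.28, against -0.01 over all genes. The interval of each of the other 8 genes is given with its receptor class below.

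Tlr2, the other gene that rose, is the shared partner of the surface receptors for lipopeptides and lies at chr3:83836272-83841767 on the minus strand. In NL4-/- females Tlr2 was at 409, 346, 262 and 294 CPM in phagocytosis libraries, against 164 and 214 CPM in controls. In WT females it was at 334, 381, 261 and 388 CPM in phagocytosis libraries, against 243 and 223 CPM in controls. As with Cd14, the female groups did not overlap within a genotype, which held for 23.3% of all genes in NL4-/- and 24.2% in WT females.

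In NL4-/- males Tlr2 was at 516, 348, 202 and 285 CPM in phagocytosis libraries, against 165 and 129 CPM in controls. In WT males it was at 324, 339, 510 and 373 CPM in phagocytosis libraries, against 237 and 648 CPM in controls. The library at 648 CPM, WT male control 2, was the highest of all 24 and is among the 3 controls rich in satellite-like reads; 15 of 16 phagocytosis libraries were nonetheless above the control median. Tlr2 averaged 348 ± 83.9 CPM in phagocytosis libraries (SD, n = 16) and 253 ± 165 CPM in controls (SD, n = 8), and the log2 fold change was 0.58 ± 0.167 (SE; 95% interval 0.24 to 0.92; adjusted p = 0.0207, edgeR). Without the 3 satellite-rich controls it was 0.82 (adjusted p = 0.0124, edgeR). The call sits close to the threshold. It was lost when WT female control 2 (adjusted p = 0.0564), NL4-/- female control 1 (0.0585), WT male control 1 (0.0574) or NL4-/- male control 2 (0.0507) was left out, with fold changes of 0.45 to 0.58 on the log2 scale in these edgeR fits.

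The start region of Tlr2 is shown beside that of Myd88, whose log2 fold change with state was the closest to 0 of the 10 genes. The RefSeq (GRCm38.p6) start regions used here run from 250 bases before to 50 bases after a start. They included 9 regions for 7 of the 10 genes. None was at hand for Tlr4, Tlr7 and Cd14, whose start regions were therefore not searched. Capitals mark matches to GGGNNNNNCC, the core letters of an NF-kB motif, on either strand.
Tlr2 (chr3:83841559-83841858, minus strand): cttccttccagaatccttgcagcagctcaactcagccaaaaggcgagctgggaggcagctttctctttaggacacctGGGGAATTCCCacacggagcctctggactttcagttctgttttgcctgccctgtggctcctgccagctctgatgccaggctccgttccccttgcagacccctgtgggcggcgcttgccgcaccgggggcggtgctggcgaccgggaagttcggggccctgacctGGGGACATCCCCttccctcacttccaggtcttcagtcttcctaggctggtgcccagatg
Myd88 (chr9:119339969-119340268, minus strand): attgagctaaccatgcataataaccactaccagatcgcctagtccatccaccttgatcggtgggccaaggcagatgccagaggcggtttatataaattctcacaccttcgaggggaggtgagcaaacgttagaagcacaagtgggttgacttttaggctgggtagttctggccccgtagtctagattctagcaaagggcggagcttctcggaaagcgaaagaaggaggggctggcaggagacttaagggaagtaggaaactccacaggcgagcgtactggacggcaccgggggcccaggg
The Tlr2 region held 5 overlapping matches in 2 stretches, which begin 173 and 9 bases before the start, and the Myd88 region held 0. These letters are common: 50.8% of the 32851 RefSeq start regions of the same length that were used here held them. The Tlr3 region held 3 matches and 1 of the Tlr6 regions held 1, neither of which passed the test for state. GAGGAAG, letters bound by the macrophage factor PU.1, stood in 13.6% of all regions and in regions of Tlr1, Tlr9 and Tlr13; the Tlr9 region held 2. GAAANNGAAA, the core of an interferon response element, stood in 3.44% of all regions, in the Myd88 region 40 bases before the start and in 1 of the Tlr6 regions. TGANTCA, the AP-1 motif, stood in 7.81% of all regions and, of these, in that of Tlr9. GGGCGG, the Sp1 motif, stood in 35.7% of all regions and in those of Tlr2, Tlr3 and Myd88. All motifs were searched on both strands, and a match is a string of letters, not a site shown to be bound.

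Tlr1 and Tlr6, the alternative partners of Tlr2, lie next to each other on chromosome 5 (chr5:64924679-64933563 and chr5:64952031-64960097, both on the minus strand) and did not pass the test with all 24 libraries. Tlr1 ran from 93.2 to 216 CPM (median 138) in phagocytosis libraries and from 57.5 to 144 CPM (median 104) in controls; 7 of 16 phagocytosis libraries were above all controls. Its log2 fold change was 0.38 ± 0.158 (SE; 95% interval 0.06 to 0.71; adjusted p = 0.108, edgeR); without the 3 satellite-rich controls it was 0.71 and passed (adjusted p = 0.0354, edgeR). Tlr6 ran from 11.2 to 66.0 CPM (median 51.9) in phagocytosis libraries and from 34.0 to 78.7 CPM (median 65.0) in controls. For Tlr6 the order was the opposite: 15 of 16 phagocytosis libraries were below the control median, 4 controls were above all phagocytosis libraries, and the log2 fold change was -0.36 ± 0.200 (SE; 95% interval -0.77 to 0.05; adjusted p = 0.249, edgeR).

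Reads of these neighbours can be exchanged by the quantifier. Their transcripts share 607 stretches of 31 bases, which are 18.3% of those in Tlr1 and 16.4% of those in Tlr6, and the longest identical run was 229 bases. The sum of the pair ran from 133 to 277 CPM (median 184) in phagocytosis libraries and from 132 to 223 CPM (median 164) in controls. Tlr1 took 58.5 to 91.9% (median 75.3%) of the pair's reads in phagocytosis libraries and 43.6 to 79.1% (median 63.9%) in controls, ranges that overlap. How much of the opposite signs of Tlr1 and Tlr6 comes from the splitting of shared reads was not tested.

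Tlr4, the lipopolysaccharide receptor to which Cd14 delivers its ligand (chr4:66827584-66930284, plus strand), did not pass the test. It had 3 to 32 reads in any library. Tlr4 ran from 5.93 to 41.3 CPM (median 18.1) in phagocytosis libraries and from 14.9 to 40.5 CPM (median 28.6) in controls, with wide overlap. Its log2 fold change was -0.43 ± 0.269 (SE; 95% interval -0.98 to 0.12; adjusted p = 0.312, edgeR), an interval that lies wholly below the 1.06 to 2.20 of Cd14. Across the 16 phagocytosis libraries, Tlr4 was lower where Cd14 was higher, but this was the strongest of 45 pairs and did not pass their adjustment (Pearson's r = -0.675, permutation p = 0.0043, adjusted p = 0.106; Spearman's rho = -0.726, permutation p = 0.00222, adjusted p = 0.0999). Once the 2 most extreme libraries for Tlr4 were dropped, r was -0.621. None of the 45 pairs passed in either state.

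**Figure D2:**
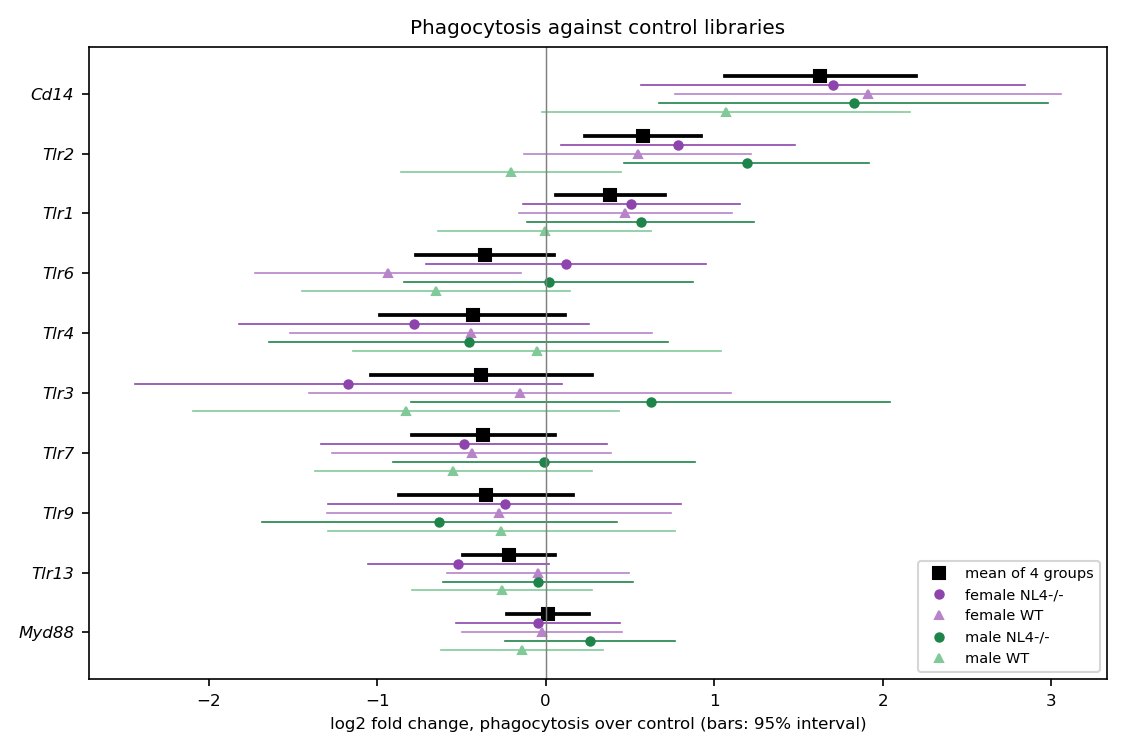
Log2 fold change of phagocytosis over control for the 10 genes, averaged over the 4 sex and genotype classes (black squares) and within each class (coloured), with 95% intervals. The black intervals of Cd14, Tlr2 and Tlr1 lie above 0 before adjustment, and those of the other 7 genes cross it.

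The endosomal receptors had lower medians in phagocytosis than in control libraries, and none of them passed the test. Tlr7, a receptor for single-stranded RNA (chrX:167304929-167330558, minus strand), ran from 20.1 to 113 CPM (median 73.7) in phagocytosis libraries and from 57.5 to 122 CPM (median 99.3) in controls, with a log2 fold change of -0.37 ± 0.206 (SE; 95% interval -0.79 to 0.06; adjusted p = 0.258, edgeR). Tlr13, which in mice recognises bacterial ribosomal RNA (chrX:106143204-106160493, plus strand), ran from 103 to 252 CPM (median 175) in phagocytosis libraries and from 129 to 291 CPM (median 206) in controls, with a log2 fold change of -0.22 ± 0.133 (SE; 95% interval -0.49 to 0.06; adjusted p = 0.308, edgeR). For each of these RNA receptors 2 controls were above every phagocytosis library.

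Tlr9, the receptor for unmethylated CpG DNA (chr9:106222598-106226883, plus strand), ran from 33.6 to 166 CPM (median 98.9) in phagocytosis libraries and from 103 to 165 CPM (median 115) in controls. Of the phagocytosis libraries 12 of 16 were below the control median and 1 was above all controls; the log2 fold change was -0.35 ± 0.248 (SE; 95% interval -0.87 to 0.17; adjusted p = 0.390, edgeR). Tlr3, the receptor for double-stranded RNA (chr8:45395665-45411080, minus strand), had only 2 to 22 reads in a library. It ran from 4.48 to 30.1 CPM (median 10.9) in phagocytosis libraries and from 4.79 to 31.5 CPM (median 15.3) in controls, and its log2 fold change of -0.38 ± 0.320 (SE; 95% interval -1.04 to 0.27; adjusted p = 0.476, edgeR) turned to 0.21 without the 3 satellite-rich controls. At this depth the values do not tell apart the changes of Tlr3 that lie within its 95% interval, no change among them. An antisense gene overlaps 7.32% of Tlr3's exon bases, and these libraries carry no strand.

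Myd88, on which all of these receptors but Tlr3 depend (chr9:119335934-119341411, minus strand), did not pass the test and had the fold change nearest to 0. Myd88 was at 171, 93.5, 140 and 121 CPM in NL4-/- female phagocytosis libraries, against 128 and 143 CPM in NL4-/- female controls. In WT females it was at 148, 128, 101 and 146 CPM in phagocytosis libraries, against 134 and 133 CPM in controls. Within each female genotype the phagocytosis libraries lay on both sides of the controls.

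In NL4-/- males Myd88 was at 165, 122, 162 and 136 CPM in phagocytosis libraries, against 112 and 132 CPM in controls. In WT males it was at 103, 158, 143 and 130 CPM in phagocytosis libraries, against 137 and 157 CPM in controls. Its mean was 136 ± 23.3 CPM in phagocytosis libraries (SD, n = 16) and 134 ± 13 CPM in controls (SD, n = 8). The log2 fold change was 0.01 ± 0.119 (SE; adjusted p = 0.968, edgeR), and its 95% interval of -0.23 to 0.26 was the narrowest of the 10. The other strand's gene Acaa1a covers 11.3% of the exon bases of Myd88, so that some reads could belong to either.

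Compared per length, in the authors' TPM summed over the transcripts of a gene, Cd14 stood far above the receptors. In phagocytosis libraries Cd14 averaged 918 ± 477 TPM (SD, n = 16) and was above Tlr2 in every library. Tlr2 followed at 113 ± 40.6 TPM and Tlr1 at 82.5 ± 41.4 TPM, an order that held in 11 of 16 libraries. Myd88 at 58.8 ± 15.1 TPM, Tlr7 at 56.0 ± 23.4 TPM and Tlr13 at 54.6 ± 13.2 TPM did not differ beyond their spread.

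The remaining receptors had lower means, and Tlr13 was above Tlr9 in all 16 phagocytosis libraries. Tlr9 averaged 22.4 ± 10.9 TPM, Tlr6 16.1 ± 8.71 TPM, Tlr4 13.2 ± 9.75 TPM and Tlr3 9.86 ± 6.06 TPM, with overlapping spreads. In controls Cd14 averaged 269 ± 178 TPM (SD, n = 8), again above every receptor in every library. The controls had Tlr7 at 60.0 ± 49.5 TPM, Tlr2 at 59.0 ± 28.0 TPM, Tlr1 at 51.9 ± 26.5 TPM, Tlr13 at 47.3 ± 20.9 TPM and Myd88 at 46.6 ± 16.03 TPM, which did not differ beyond their spread, and the lower 4 kept the order seen in phagocytosis libraries. Ranked by mean CPM among the 9803 genes, Cd14 was number 45 in phagocytosis libraries and Tlr2 number 391.

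**Figure D3:**
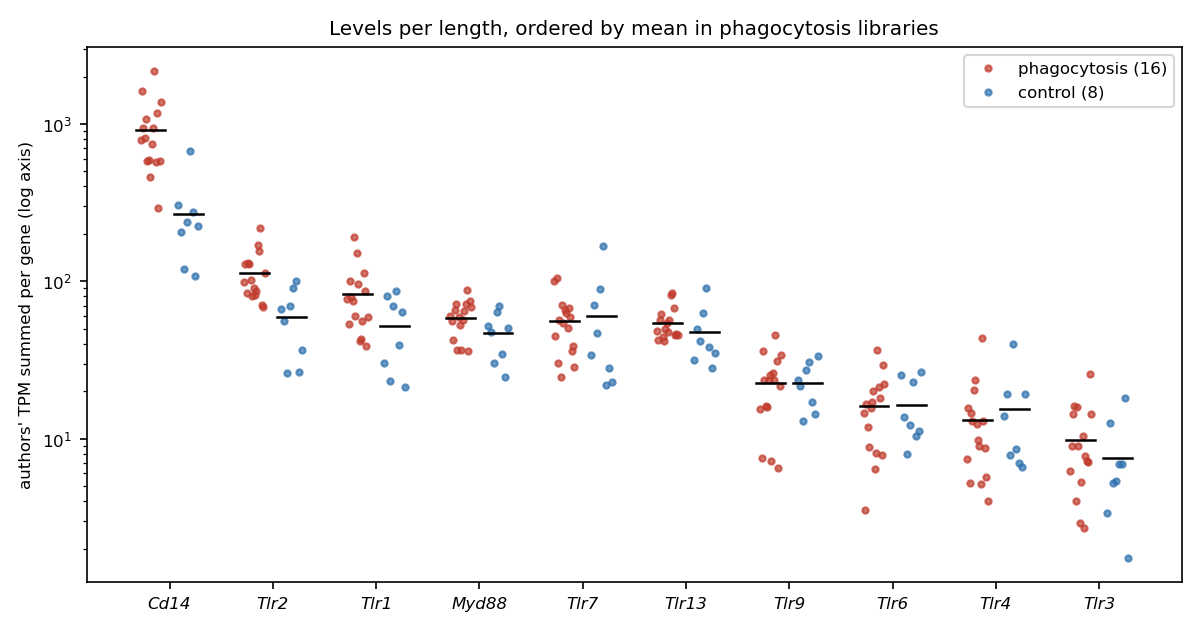
Authors' TPM per gene (log axis) in the 16 phagocytosis (red) and 8 control (blue) libraries, with lines at the means, ordered by the phagocytosis mean. Cd14 averages 918 TPM in phagocytosis and 269 TPM in control libraries, and Tlr9, Tlr6, Tlr4 and Tlr3 form a lower tier in both.

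Within single sex and genotype classes, each of 4 phagocytosis against 2 control libraries, none of the 10 genes passed edgeR's test. The share of all genes called was 0.459% in NL4-/- females, 0.581% in WT females, 0.602% in NL4-/- males and 0.326% in WT males. These shares are 45, 57, 59 and 32 genes in the same order, where DESeq2 called 152, 192, 146 and 70, and edgeR's counts ran from 3 to 70, 1 to 86, 1 to 66 and 0 to 58 when single libraries were left out. The log2 fold change of Cd14 was 1.71 ± 0.543 in NL4-/- females, 1.91 ± 0.545 in WT females, 1.83 ± 0.549 in NL4-/- males and 1.07 ± 0.520 in WT males (SE; edgeR adjusted p = 0.258, 0.135, 0.180 and 0.619). That of Tlr2 was 0.78 ± 0.338 in NL4-/- females, 0.55 ± 0.329 in WT females, 1.19 ± 0.353 in NL4-/- males and -0.20 ± 0.317 in WT males (SE; edgeR adjusted p = 0.451, 0.530, 0.147 and 0.913). Cd14 was thus positive in all 4 classes, and Tlr2 in all but WT males, whose controls included the library at 648 CPM.

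Whether state effects differed between genotypes or sexes was tested as a difference of differences. For 0 of the 9803 genes did state and genotype interact past the threshold in edgeR (276 at an unadjusted p under 0.05, and 1 by DESeq2), and 0% were called for state and sex (190 unadjusted, 1 by DESeq2). The state effect on Tlr2 was larger in NL4-/- than in WT libraries by 0.82 ± 0.328 on the log2 scale (SE; 95% interval 0.14 to 1.49) and that on Tlr6 by 0.86 ± 0.402 (SE; 95% interval 0.04 to 1.69), both with an adjusted p of 1.00 in edgeR. Neither passed, and the value for Tlr2 was 0.37 without WT male control 2 and 1.09 without WT male control 1. For Cd14 the same difference was 0.27 ± 0.501 (SE; 95% interval -0.78 to 1.33).

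The genotype comparison itself, NL4-/- against WT, called none of the 10 genes. In phagocytosis libraries, with 8 from NL4-/- and 8 from WT mice, 0% of all genes were called by edgeR (500 genes at an unadjusted p under 0.05, and 1 by DESeq2). Cd14 was at 780 to 2180 CPM in NL4-/- and at 774 to 3795 CPM in WT phagocytosis libraries. The ranges overlapped, and the log2 fold change was -0.58 ± 0.286 (SE; 95% interval -1.19 to 0.02; adjusted p = 0.944, edgeR), with values of -0.60 in females and -0.57 in males. Tlr6 was at 31.98 to 66.0 CPM in NL4-/- and at 11.2 to 64.1 CPM in WT phagocytosis libraries, with a log2 fold change of 0.45 ± 0.233 (SE; 95% interval -0.03 to 0.93; adjusted p = 0.944, edgeR). The other 8 genes had log2 fold changes from -0.21 (Tlr13) to 0.20 (Tlr1). Myd88 had the narrowest interval, from -0.21 to 0.35, around a log2 fold change of 0.07.

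In control libraries, with 2 against 2 in each sex, 0% of all genes were called by edgeR (210 in females and 328 in males at an unadjusted p under 0.05; 4 and 5 by DESeq2). In male controls Tlr2 was at 165 and 129 CPM in NL4-/- and at 237 and 648 CPM in WT, and Cd14 at 364 and 432 CPM in NL4-/- and at 1035 and 957 CPM in WT. Neither pair of groups overlapped, as was the case for 33.8% of all genes in male controls. The log2 fold changes were -1.59 ± 0.392 for Tlr2 (SE; 95% interval -2.40 to -0.79) and -1.32 ± 0.591 for Cd14 (SE; 95% interval -2.57 to -0.08), each with an adjusted p of 1 in edgeR. The value for Tlr2 rests on WT male controls 1 and 2: it was -2.12 and passed the threshold without WT male control 1 (adjusted p = 0.028, edgeR), and was -0.68 without WT male control 2 (adjusted p = 1), the extremes of 24 fits that each left out 1 library. Leaving out either one keeps a single WT male control, which the fit assumes to vary like the libraries of the other groups. With no filter on low counts it also passed (-1.62, adjusted p = 0.000618, edgeR). In female controls the values were -0.29 ± 0.379 for Tlr2 and -0.39 ± 0.582 for Cd14 (SE).

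Between the sexes, phagocytosis libraries of males and females differed in 4 genes, 0.0408% of those tested by edgeR (467 at an unadjusted p under 0.05), and none was among the 10. Tlr7 and Tlr13 lie on the X chromosome, where TLR7 is known in human immune cells to escape X inactivation in part. Tlr7 was at 41.5 to 113 CPM in male and at 20.1 to 93.2 CPM in female phagocytosis libraries, with a log2 fold change of 0.27 ± 0.240 (male over female, SE; 95% interval -0.23 to 0.76; adjusted p = 1.00, edgeR). Tlr13 was at 103 to 252 CPM in males and at 130 to 199 CPM in females, with a log2 fold change of 0.20 ± 0.154 (SE; 95% interval -0.11 to 0.51; adjusted p = 1.00, edgeR). The ranges of the sexes overlapped for both genes.

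Phagocytosis libraries are numbered 1 to 4 within their group and controls 1 and 2, and the labels do not say what the numbers stand for. Tlr6 averaged 36.3 ± 14.99 CPM in phagocytosis libraries numbered 1 and 2 and 58.9 ± 8.24 CPM in those numbered 3 and 4 (SD, n = 8 each). Tlr9 averaged 73.0 ± 36.7 CPM in numbers 1 and 2 and 120 ± 29.2 CPM in numbers 3 and 4. For these 2 receptors the lower numbers were lower in all 4 groups, by 0.44 to 1.28 on the log2 scale for Tlr6 and by 0.50 to 1.34 for Tlr9; 17.8% of all genes differed in 1 direction in all 4 groups, and these 2 were singled out after the values of all 10 were seen.

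Tlr1 went the other way in 3 of 4 groups, with 158 ± 36.7 CPM in numbers 1 and 2 and 121 ± 23.4 CPM in numbers 3 and 4, and Tlr1 took 81.6 ± 5.85% of the Tlr1 and Tlr6 reads in numbers 1 and 2 and 66.7 ± 6.63% in numbers 3 and 4. Cd14 averaged 1756 ± 665 CPM in numbers 1 and 2 and 1611 ± 1009 CPM in numbers 3 and 4, each above the 575 CPM of controls. Against all controls, Cd14 passed edgeR's test with either set of phagocytosis libraries, and Tlr2 passed with numbers 1 and 2 and not with numbers 3 and 4, where the log2 fold change was 0.44 (adjusted p = 0.172). With numbers 1 and 2 alone, Tlr1 (0.59, adjusted p = 0.0125) and Tlr6 (-0.75, adjusted p = 0.0147) passed as well; with numbers 3 and 4 alone, Tlr7 did (-0.52, adjusted p = 0.0452, all edgeR). Of all genes, edgeR called 1772 with numbers 1 and 2 alone and 782 with numbers 3 and 4 alone. The part of whatever the numbers mark in these values was not tested.

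**Figure D4:**
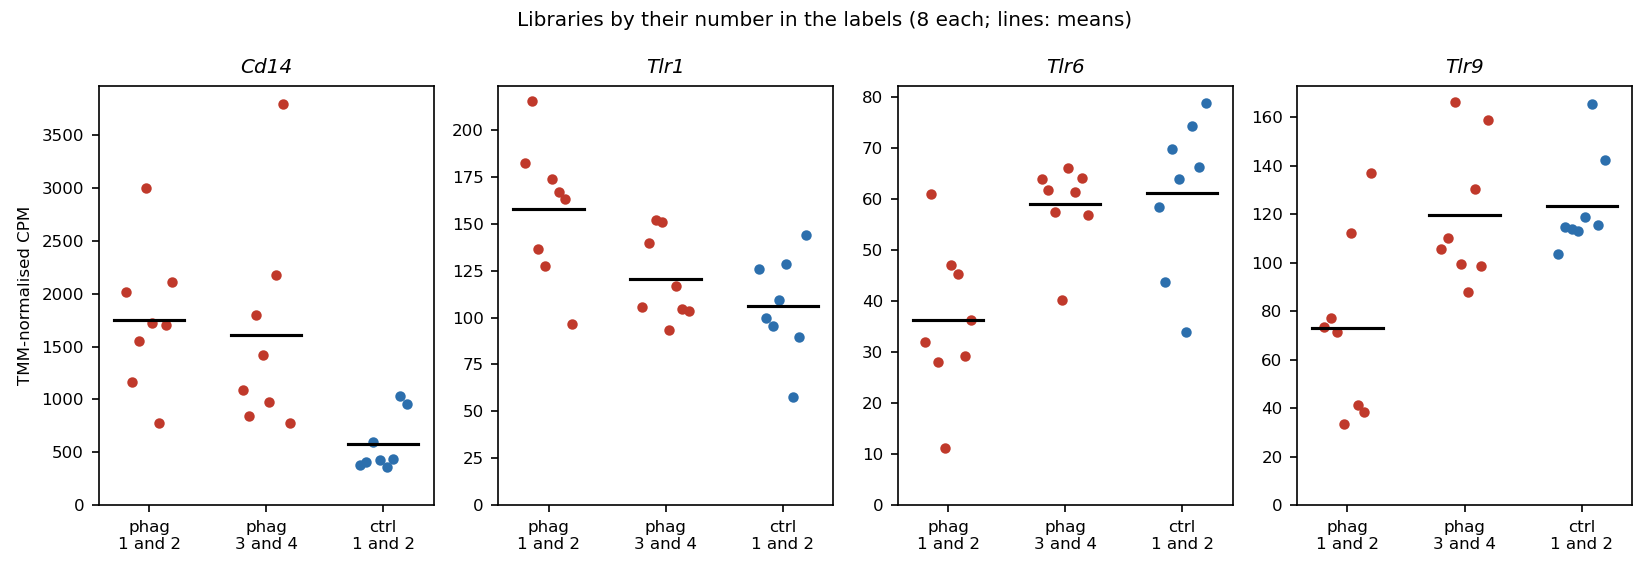
TMM-normalised CPM of 4 genes in phagocytosis libraries numbered 1 and 2, phagocytosis libraries numbered 3 and 4, and controls (8 libraries each, linear axes from 0, lines at the means). Tlr6 and Tlr9 average 36.3 and 73.0 CPM in numbers 1 and 2, below the 58.9 and 120 CPM of numbers 3 and 4, while both sets are above controls for Cd14.

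The rest of the pathway was read from lists of its parts, 78 genes tested besides the 10. Of all genes tested, 13.6% were called for state (8.41% higher and 5.18% lower). The counts of every list below are to be read beside these shares. Of the other Toll-like receptors, Tlr5 and Tlr12 were tested and neither passed. Tlr5, the flagellin receptor, averaged 8.78 ± 4.74 CPM in phagocytosis libraries and 16.1 ± 6.11 CPM in controls, with a log2 fold change of -0.86 (adjusted p = 0.0921, edgeR); with phagocytosis libraries numbered 1 and 2 alone it was -1.59 and passed (adjusted p = 0.0113, edgeR). Tlr12, which in mice binds a parasite profilin, averaged 35.3 ± 14.4 CPM in phagocytosis libraries and 47.6 ± 10.3 CPM in controls (-0.45, adjusted p = 0.181, edgeR).

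Among 7 genes of ligand presentation and receptor partners, 2 rose and 0 fell, with a median log2 fold change of 0.21. Cd36, a scavenger receptor that partners with Tlr2 and Tlr6, had a total of 300 reads in phagocytosis libraries (26.2 ± 15.7 CPM) and 18 reads in controls (4.09 ± 5.15 CPM; adjusted p = 4.24e-05, edgeR); it was at 0 reads in WT male controls, where it passed within the class as well (adjusted p = 0.0236). Cd180, a relative of Tlr4 that lacks a signalling domain, averaged 186 ± 57.4 CPM in phagocytosis libraries and 118 ± 29.1 CPM in controls (log2 fold change 0.69 ± 0.159, SE; adjusted p = 0.00393, edgeR), a call lost without the 3 satellite-rich controls. Trafficking and maturation genes bring the nucleic acid receptors to endosomes. Of 8 tested, 1 rose and 0 fell, near the share of all genes called, with a median of -0.03. That gene was Slc15a3, a lysosomal transporter of peptides and histidine, at 278 ± 70.1 CPM in phagocytosis libraries and 152 ± 27.8 CPM in controls (0.88 ± 0.151, SE; adjusted p = 0.000229, edgeR).

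Of 16 adaptors and proximal kinases besides Myd88, 1 rose and 1 fell, near the 13.6% of all genes called, with a median of -0.10. Ikbke, a kinase of interferon regulatory factors, averaged 42.5 ± 17.3 CPM in phagocytosis libraries and 6.25 ± 4.48 CPM in controls (log2 fold change 2.85 ± 0.370, SE; adjusted p = 3.77e-06, edgeR). It also passed within NL4-/- males (3.53 ± 0.853, SE; adjusted p = 0.0437, edgeR). Btk, a tyrosine kinase that acts near several receptors, averaged 102 ± 25.6 CPM in phagocytosis libraries and 135 ± 9.27 CPM in controls (-0.41 ± 0.134, SE; adjusted p = 0.0388, edgeR). The call of Btk was fragile: it was lost in 17 of 24 fits that left out 1 library (highest adjusted p = 0.146, edgeR), namely any of the 8 controls, numbers 1 and 2 of either female phagocytosis group, numbers 1 and 3 of WT males or numbers 2, 3 and 4 of NL4-/- males, and also without the 3 satellite-rich controls, with length-scaled counts, with no filter on low counts and with numbers 3 and 4 alone.

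Of 9 negative regulators 2 rose and 0 fell, with a median of 0.14. Dusp1, a phosphatase of MAP kinases, averaged 418 ± 181 CPM in phagocytosis libraries and 303 ± 181 CPM in controls (log2 fold change 0.87 ± 0.235, SE; adjusted p = 0.0181, edgeR). This value is a mean over the classes. Within single classes Dusp1 passed only in NL4-/- females, where its log2 fold change was 2.73 (adjusted p = 0.0211, edgeR). Nfkbia, the inhibitor of NF-kB that NF-kB itself induces, averaged 435 ± 162 CPM in phagocytosis libraries and 308 ± 169 CPM in controls (0.58 ± 0.177, SE; adjusted p = 0.0307, edgeR). Dusp1 lost its call without NL4-/- female control 1, without WT male control 1 (highest adjusted p = 0.06, edgeR) and without the 3 satellite-rich controls. Nfkbia lost its call without WT female control 2, NL4-/- female control 1, WT male control 1 or NL4-/- male control 2 (highest adjusted p = 0.0843, edgeR), with length-scaled counts and with numbers 3 and 4 alone. Dusp1 is also an immediate early gene that responds to tissue dissociation: the 14 listed genes of that kind summed to 3431 CPM in phagocytosis libraries and to 3163 CPM in controls (adjusted p = 0.666, exact permutation test), with 8 of 14 higher in phagocytosis.

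Of 11 transcription factors 1 rose and 2 fell, with a median of 0.05. Irf7, which drives interferon genes after Tlr7 and Tlr9 signals, ran from 32.5 to 594 CPM (median 149) in phagocytosis libraries and from 7.19 to 55.5 CPM (median 16.7) in controls, with a log2 fold change of 3.23 ± 0.596 (SE; adjusted p = 0.00188, edgeR). The NF-kB subunit genes Rel and Nfkb1 fell with all 24 libraries, and both calls depended on the controls. Rel averaged 29.3 ± 9.15 CPM in phagocytosis libraries and 45.3 ± 12.9 CPM in controls (-0.64 ± 0.184, SE; adjusted p = 0.0173, edgeR), and Nfkb1 120 ± 23.3 CPM in phagocytosis libraries and 158 ± 20.3 CPM in controls (-0.40 ± 0.119, SE; adjusted p = 0.0235, edgeR). Rel lost its call without WT female control 2, NL4-/- female control 1, WT male control 2 or NL4-/- male control 1 (highest adjusted p = 0.219, edgeR), and Nfkb1 without WT female control 2, either NL4-/- female control, WT male control 2 or NL4-/- male control 2 (highest adjusted p = 0.179, edgeR). Both lost it without the 3 satellite-rich controls and with length-scaled counts, Rel also with numbers 3 and 4 alone, and Nfkb1 also with numbers 1 and 2 alone and with no filter on low counts. Fos, an immediate early gene, passed within NL4-/- females (3.05 ± 0.588, SE; adjusted p = 0.0156, edgeR), as did Dusp1 (2.73 ± 0.543, SE; adjusted p = 0.0211, edgeR). With all 24 libraries Fos did not pass (0.46 ± 0.237, SE; adjusted p = 0.220, edgeR). Its mean was lower in phagocytosis libraries (172 ± 87.6 CPM) than in controls (188 ± 118 CPM). Control values spread widely, from 13.5 to 335 CPM for Fos and from 29.2 to 547 CPM for Dusp1. For both genes the lowest control was NL4-/- female control 1, a satellite-rich library of the class in which both passed.

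The target genes at the end of the pathway had the largest median of the lists: of 14 tested, 9 rose and 0 fell, where 8.41% of all genes rose. Their median log2 fold change was 2.91, or 2.03 when 4 genes with no read in a control group were set against a floor of 3 counts over that group. The list was drawn up with earlier results of these data known, so its count and its place among the lists are descriptions only. Ccl4, a chemokine, ran from 228 to 940 CPM (median 465) in phagocytosis libraries and from 31.5 to 86.0 CPM (median 51.4) in controls, with no overlap and a log2 fold change of 3.16 ± 0.298 (SE; adjusted p = 7.43e-07, edgeR). Such a separation of the 2 states, in one direction or the other, held for 0.867% of all genes tested. Ccl4 passed in each of the 4 classes on its own, with log2 fold changes from 2.87 to 3.69.

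The chemokine Ccl3 averaged 485 ± 229 CPM in phagocytosis libraries and 83.8 ± 38.4 CPM in controls (log2 fold change 2.67 ± 0.352, SE; adjusted p = 8.43e-05, edgeR), and it passed within NL4-/- females too (3.91 ± 0.781, SE; adjusted p = 0.0305, edgeR). Ccl5, another chemokine, ran from 37.5 to 3167 CPM (median 404) in phagocytosis libraries and from 8.99 to 156 CPM (median 13.1) in controls (4.79 ± 0.828, SE; adjusted p = 0.00119, edgeR). The cytokine Tnf averaged 131 ± 54.6 CPM in phagocytosis libraries and 68.2 ± 48.7 CPM in controls (1.09 ± 0.270, SE; adjusted p = 0.00988, edgeR). Acod1, which makes itaconate, and Ptgs2, an inducible cyclooxygenase, were nearly unread in controls. Acod1 had 566 reads in phagocytosis libraries and 6 in controls (adjusted p = 0.00236, edgeR), and Ptgs2 186 reads in phagocytosis libraries and 7 in controls (adjusted p = 0.00666, edgeR). The call of Ptgs2 was lost without the 3 satellite-rich controls and with length-scaled counts.

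Of 11 other pattern receptors of microglia 2 rose and 1 fell, with a median of 0.35. Zbp1, a cytosolic sensor of nucleic acids, averaged 46.0 ± 33.4 CPM in phagocytosis libraries and 6.67 ± 5.36 CPM in controls (log2 fold change 2.84 ± 0.499, SE; adjusted p = 0.000668, edgeR). Clec7a, the beta-glucan receptor Dectin, averaged 23.96 ± 14.6 CPM in phagocytosis libraries and 7.70 ± 4.42 CPM in controls (1.74 ± 0.469, SE; adjusted p = 0.0127, edgeR). Tmem173, the adaptor STING of cytosolic DNA sensing, averaged 405 ± 113 CPM in phagocytosis libraries and 589 ± 45.5 CPM in controls (-0.54 ± 0.153, SE; adjusted p = 0.0180, edgeR). The calls of Clec7a and Tmem173 were lost without the 3 satellite-rich controls and with numbers 3 and 4 alone, and that of Tmem173 also without WT female control 2, NL4-/- female control 2, WT male control 2 or NL4-/- male control 2 (highest adjusted p = 0.084, edgeR).

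**Figure D5:**
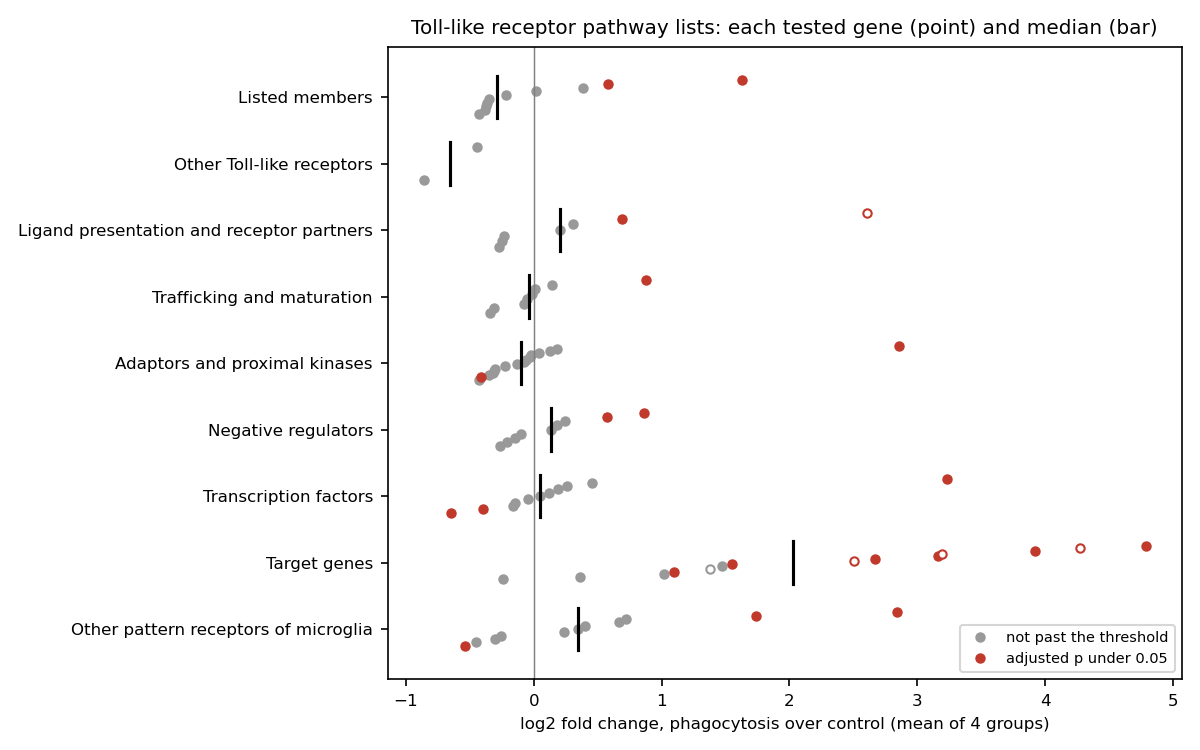
Log2 fold change of phagocytosis over control (mean of 4 classes) for each tested gene of the pathway lists, red where the adjusted p is under 0.05, with a bar at each list's median. Open points are genes with no read in a control group, set against a floor of 3 counts over that group; the target genes have a median of 2.03 on this scale and the 10 listed genes of -0.28.

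Genes whose levels ran most like those of the 10 were taken by Pearson's r of log2 CPM over the 24 libraries. They came from 6672 genes at a mean of at least 20 CPM. Libraries of 2 states are pooled in this r. For Cd14 and Tlr2 it is also given after the 8 group means were removed, and elsewhere it is the pooled r alone. For Cd14 they were Aldoa, a glycolytic enzyme (r = 0.937, and 0.843 within groups), Sdc4, a heparan sulphate proteoglycan (0.934 and 0.803), and Cndp2, a dipeptidase (0.927 and 0.862), all of which rose with state. For Tlr2 they were Gpr84, a receptor for medium-chain fatty acids (r = 0.858, and 0.813 within groups), the histone demethylase Kdm6b (0.834 and 0.719) and the glycosyltransferase Galnt6 (0.813 and 0.609). For Tlr1 they were Hspa4 (r = 0.853), Cpd (0.794) and the chemokine Ccl12 (0.762).

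For Tlr7 the nearest genes were Ezh1 (r = 0.802), 9930111J21Rik2 (0.782) and Exoc4 (0.779), and for Tlr9 Nectin4 (0.857), Smpd5 (0.849) and Trim11 (0.832). For Tlr13 they were the kinase Jak1 (r = 0.849), Dram2 (0.833) and Picalm (0.801). For Tlr4 they were Asap1 (r = 0.837), Ddx17 (0.816) and Kpna1 (0.803), for Tlr6 Map3k3 (0.806), Saysd1 (0.804) and Aacs (0.789), and for Myd88 Slc37a4 (0.736), Ighmbp2 (0.719) and Etfa (0.701). The values for Myd88 were the lowest, on a gene whose level varied little. Tlr3, at a mean under 20 CPM, was not compared.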

How the data were processed

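Per the file headers, the authors deposited for every transcript in a library its expected count of reads, which is not normalised, its TPM, which are scaled by effective length and library, and its lengths. Version and index of the quantifier, and any filter on reads, were not given in the sources used here. Of 116945 transcripts, 116023 matched GENCODE vM21 (GRCm38), and the other 922 were dropped. The deposited expected counts were added up per gene and rounded; the authors' TPM were summed per gene and used only to compare levels between genes. Genes were tested with edgeR 4.0.16 in R 4.3.3 (quasi-likelihood, robust, TMM) in 1 fit of 24 libraries with 8 group means, over 9803 genes that passed edgeR's filter at a minimum count of 10 (common dispersion 0.0812). There were 14 comparisons. Standard errors were worked back from the F statistic. Marker sums, per library total, were compared by exact permutation over libraries. Likeness and levels are descriptions.

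The genes and lists were chosen with earlier results of these data known. Named from each list were up to 6 genes by adjusted p (2 if no gene of the list passed) and any list gene that passed another comparison; likeness names the 3 highest correlations of each gene at a mean of at least 20 CPM. The 33 alternatives included DESeq2 1.42.0, other filters and scalings, a block for the replicate number, and leaving out each library. The design text gives 5 phagocytosis replicates a group, of which 4 were analysed here. P-values measure the spread between libraries. Reads without molecular identifiers are not independent molecules, so precision from counts covers counting error only.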

Additional observations from a re-analysis of the deposited data

Results flagged for a closer look

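Of 40 sets of 4 libraries, 1 for each of the 10 genes in each of the 4 phagocytosis groups, 2 held a library far from the others by Dixon's test at the 95% level, where chance flags about 1 in 20. Tlr1 stood at 163.1 CPM in WT male phagocytosis 1, while the other 3 libraries of that group lay between 96.7 and 104 CPM. Tlr6 stood at 31.98 CPM in NL4-/- female phagocytosis 1, while the other 3 lay between 61.0 and 63.8 CPM.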

How the results depend on the processing

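Cd14 rose under all 33 alternatives, with log2 fold changes of 1.52 to 1.71 when single libraries were left out. Tlr2 ran from 0.45 to 0.83 in those fits and passed in 20 of 24; it was 0.44 and not called with phagocytosis libraries numbered 3 and 4 only. The number of the 10 genes past the threshold, 2, ran from 1 to 3 when single libraries were left out, was 3 without the 3 satellite-rich controls, as Tlr1 joined (0.71), and was 4 with phagocytosis libraries numbered 1 and 2 only. The number of all genes called, 1332, was 885 with length-scaled counts, 410 without the 3 satellite-rich controls and 782 with numbers 3 and 4 only. It was 1772 with numbers 1 and 2 only, and 781 to 1508 when single libraries were left out.

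Within classes, none of the 10 genes was called; DESeq2 called 1 in WT females, 1 in NL4-/- females and 2 in NL4-/- males, numbers 1 and 2 only gave 1, 1 and 2 in these classes, and no filter on low counts gave 1 in NL4-/- males. Leaving out single libraries gave 0 to 1 in WT females. For genotype in male controls, no filter gave 1 and leaving out single libraries gave 0 to 1. Signs turned for Tlr3 without the 3 satellite-rich controls (0.21), for Myd88 with length-scaled counts (-0.01746) and when single libraries were left out (-0.007874 to 0.08685), and for the astrocyte marker sum without those controls (a difference of 5.36 CPM). The cause of these changes was not tested.

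After group means were removed, same-numbered libraries of one state had correlations of -0.117 to 0.176, with 3 of 36 pairs over 0.1. Libraries of one state with unlike numbers had 8 of 84 pairs over 0.1. Of 16 phagocytosis libraries, 5 correlated best with their own number, and the numbers were not taken as pairs. Even so, 17.8% of all genes differed in 1 direction between numbers 1 and 2 and numbers 3 and 4 in all 4 phagocytosis groups. With the replicate number as a block, 4 of the 10 genes passed for state, as Tlr1 (0.56) and Tlr6 (-0.77) joined Cd14 and Tlr2, and 1 passed in WT females; Tlr5 passed too (-1.46), while Dusp1 and Nfkb1 lost their calls; all genes called numbered 1646. Depth limits Tlr3 and Tlr4 most, at 2 to 22 and 3 to 32 reads a library.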
